A study of Mus musculus with 5 samples.

Results

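The genes described here are cyclins, cyclin-dependent kinases (CDKs) and their inhibitors, replication origin proteins, E2F transcription factors, mitotic kinases and centromere proteins. They were chosen by symbol, as rows whose names begin with Ccna, Ccnb, Ccnd, Ccne, Cdk, Cdkn, Mcm or certain Cdc. Rows that begin with Cenp, Aurk, Plk, E2f, Orc or Bub, or that read Pcna, were also taken. The rule found 91 of 12293 genes. Of these, 11 match by name alone, such as Cdc73, Cdk5rap3 and the pseudogene Cdk3-ps, and were counted apart. A mean FPKM of 1 or more, the filter for testing, was met by 73 of the 91, and 18 were not tested. The rule also asks for Mki67, Top2a, Cdc20 and Cdc6, which are not analysed here.

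RNA was sequenced from mammary epithelial cells of adult virgin mice that had been ovariectomized and had carried hormone pellets for 14 days. All cells were sorted as lineage-negative and CD24+, about 50 per library. Luminal cells were CD29low and GFP+ (1 library), basal cells were CD29hi and TdTomato+ (2 libraries, Basal-1 and Basal-2), and luminal-derived basal cells (LdBC) were CD29hi and GFP+ (2 libraries, LdBC-1 and LdBC-2). The labels name neither the hormones nor what drives the 2 reporters, all groups share the surgery and the pellets, and no group without hormone is analysed here. They do not say whether libraries came from separate animals. The p-values reflect the spread within the LdBC pair and within the basal pair, and that spread may be technical. The luminal group, with 1 library, adds none. Values are FPKM, a fragment count divided by transcript length and library size. The number of reads per library is unknown.

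A cell leaves G1 phase when D cyclins bound to Cdk4 or Cdk6 inactivate the retinoblastoma proteins, which releases E2F factors to switch on genes for DNA replication. Origin recognition proteins (Orc) and the Mcm helicase then license replication origins, which Cdc7 and Cdc45 help to fire, and cyclins A and B with Cdk1 carry the cell through mitosis, where centromere proteins hold the chromosomes. Inhibitors of the Cdkn families block these kinases. In the mammary gland, ovarian hormones drive epithelial proliferation, and cyclin D1 is required in mice for the alveoli that form in pregnancy.

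Cdkn1a, Pcna, Cdk4 and Cdk7 had at least 28.0 FPKM in every library. Cdk1, Ccnb1 and Plk1, which act in mitosis, reached 1 FPKM in Basal-1 alone and are in the table through it. An FPKM of 1 or more was reached by 43 of 91 genes in the luminal library (47.3%), where 56.6% of all genes did. It was reached by 54 in LdBC-1 (59.3%, all genes 66.2%) and by 61 in LdBC-2 (67.0%, all genes 75.0%). In Basal-1 there were 76 (83.5%, all genes 79.4%) and in Basal-2 there were 70 (76.9%, all genes 77.2%). The share of cell cycle genes was therefore below the share of all genes in the luminal library, both LdBC libraries and, by a small margin, Basal-2, and above it in Basal-1. Of the 91 genes, 10 (11.0%, beside 4.27% of all genes) reached 1 FPKM in Basal-1 alone and are in the table through it. This selection raises the Basal-1 share and lowers the shares of the other libraries, so part of the pattern is built in. Across all 5 libraries 30 of the genes reached 1 FPKM, 33.0% against 39.7% of all genes. In these pools, fewer cycling cells and less RNA per cycling cell cannot be told apart.

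**Figure D1:**
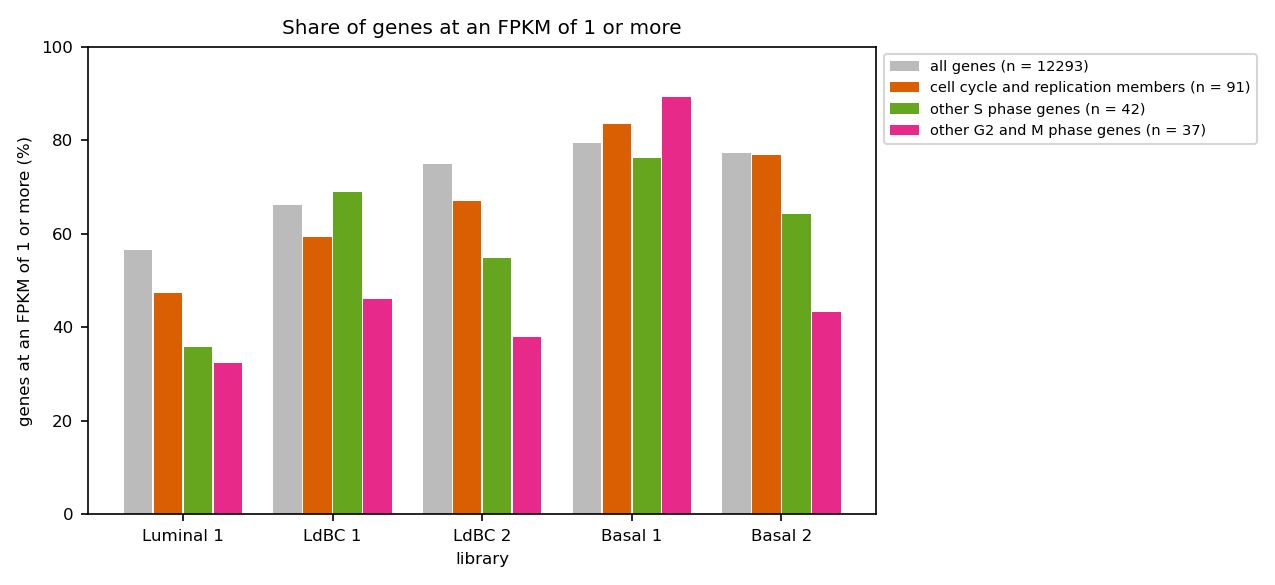
Share of genes at an FPKM of 1 or more (y axis, percent) in each of the 5 libraries. Bars are for the 91 cell cycle and replication genes, all 12293 genes, 42 other S phase genes and 37 other G2 and mitotic genes. The share of the 91 genes rises above that of all genes in Basal-1 only, at 83.5% against 79.4%. The other S phase genes do so in LdBC-1 only (69.0% against 66.2%), and the other G2 and mitotic genes in Basal-1 only (89.2%). Of the 91 genes 10, and of the 37 genes 11, are in the table through Basal-1 alone.

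The marker sums followed the labels, while some single markers did not. Summed over 8 markers each, luminal markers had 23148, 27548 and 24470 FPKM in the luminal, LdBC-1 and LdBC-2 libraries and 1063 and 838 in the basal libraries. Basal markers had 3.51 FPKM in luminal cells, with 7 of 8 listed at 0, 1342 and 2141 in LdBC and 9306 and 8670 in basal cells. The sums rest mostly on Krt8 and Krt18, and on Acta2, Krt14 and Tagln. The luminal marker Kit was listed at 0 in luminal cells and had 14.4 and 4.36 FPKM in LdBC. The basal marker Oxtr had 3.51 FPKM in luminal cells, 0 and 3.72 in LdBC and 1.54 and 5.36 in basal cells, and Trp63 was listed at 0 in LdBC-1. Markers of other cell types stood out in some libraries. In Basal-1 the 7 endothelial markers in the table summed to 168 FPKM and all 7 reached 1 FPKM, while the other libraries summed to between 0.313 and 19.5. In the luminal library, 2 erythroid transcripts, the joined alpha-globin row Hba-a1Hba-a2 and Alas2, summed to 1275 FPKM against 0.708 to 27.5 elsewhere. Fibroblast markers summed to 305 FPKM in luminal cells, 61.2 and 189 in LdBC and 506 and 551 in basal cells, mostly from Dcn and Pdpn, and the collagen genes among them reached at most 3.22 FPKM. Immune markers summed to 33.1 FPKM in luminal cells, 26.6 and 16.7 in LdBC and 20.3 and 5.93 in basal cells. Among them Cd52 had 9.14 and 6.10 FPKM in LdBC and 0 in the other libraries. The part of these cells in the differences between LdBC and basal cells was not tested.

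**Figure D2:**
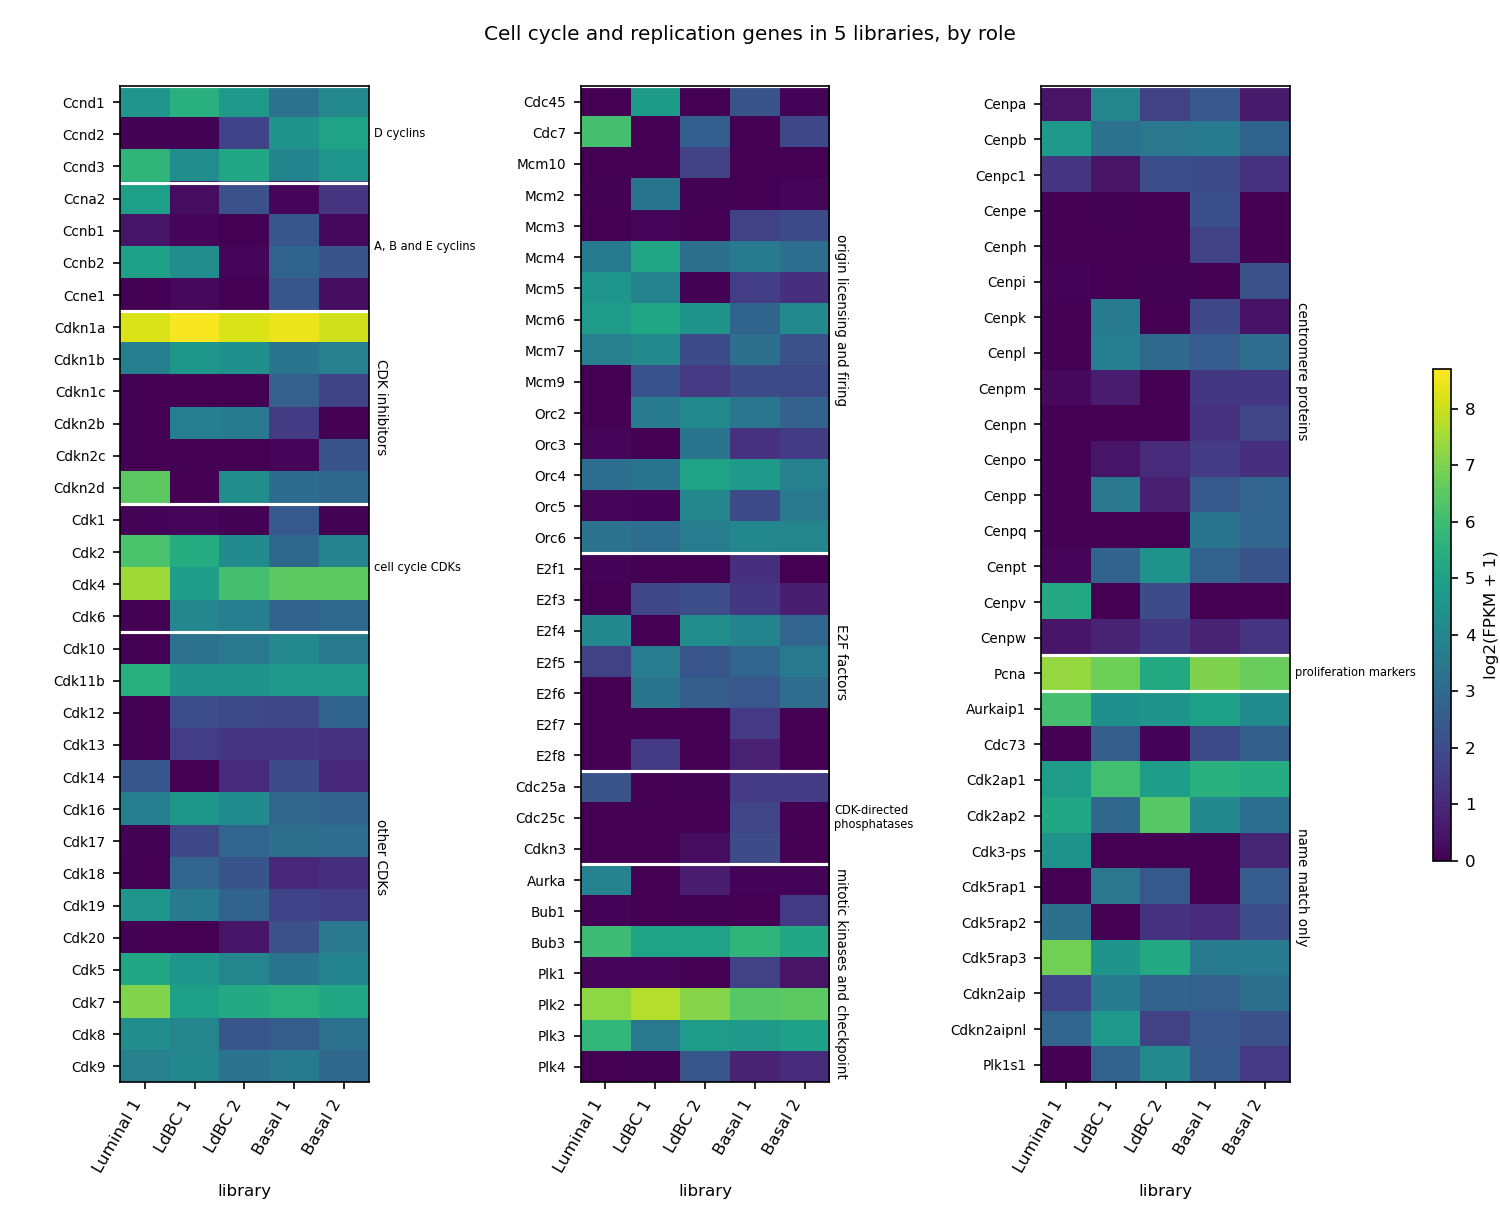
Level of each of the 91 genes, as log2(FPKM + 1) by colour, in the 5 libraries (columns), grouped by role. Cdkn1a, Plk2, Pcna and Cdk4 are bright in every library, while Cdk1, Plk1 and Cdc25c are dark outside Basal-1. Cdk1, Plk1 and Cdc25c are in the table through Basal-1 alone, so their low values elsewhere were fixed by the selection.

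The comparison of LdBC with basal cells asks how cells in the basal gate that carry the luminal reporter differ from basal cells. No gene of the set passed limma's threshold, yet Ccnd1 was the higher in both LdBC libraries and Ccnd2 in both basal libraries. Ccnd1 (chr7:144929931-144939925, minus strand, build GRCm38, in a row joined with Mir3962) encodes cyclin D1. It had an FPKM of 44.5 in LdBC-1 and 25.4 in LdBC-2, 8.62 in Basal-1 and 15.9 in Basal-2, and 22.4 in luminal cells. The 2 LdBC values exceeded the 2 basal values, by 1.44 ± 0.50 (SE) on the log2(FPKM + 1) scale (limma with Benjamini-Hochberg adjusted p = 0.251). Ccnd2 (chr6:127125162-127152193, minus strand), for cyclin D2, had 0.0436 and 2.40 FPKM in LdBC, 21.4 and 30.9 in basal cells, beside 0.0264 in luminal cells. The LdBC libraries lay below the basal ones without overlap, by a log2 difference of -3.83 ± 0.80 SE (adjusted p = 0.138 from limma with Benjamini-Hochberg adjustment). On the opposite strand, exons of LTO1 overlap Ccnd1 and exons of uncharacterised genes overlap Ccnd2, and the labels give no strand information. Without Basal-1, which held endothelial markers, the differences were 1.03 for Ccnd1 and -4.08 for Ccnd2.

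The third D cyclin, Ccnd3 (chr17:47505051-47599691, plus strand, overlapping Bysl on the other strand), did not separate the groups. It had 18.2 and 35.3 FPKM in LdBC, 14.3 and 22.6 in basal cells, beside 50.6 in luminal cells, and the LdBC and basal libraries overlapped. As a share of the summed D cyclin FPKM, Ccnd2 made up 0.0362% in luminal cells, 0.0695% and 3.80% in LdBC and 48.3% and 44.5% in basal cells. The D cyclin sums themselves lay between 44.3 and 73.1 FPKM in the 5 libraries. By this share LdBC stood near luminal cells and far from basal cells.

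Among the kinases that D and E cyclins activate, Cdk6 and Cdk2 were higher and Cdk4 lower in both LdBC libraries than in both basal libraries, and none of the 3 passed. Cdk6 (chr5:3341485-3531008, plus strand, overlapping Gm17590 on the other strand) had 15.3 and 12.2 FPKM in LdBC, 5.68 and 6.85 in basal cells, and was listed at 0 in luminal cells. The log2 difference between LdBC and basal cells was 1.02 ± 0.46 SE (adjusted p = 0.339 from limma with Benjamini-Hochberg adjustment). Cdk4 (chr10:127063534-127067920, plus strand), whose exons overlap Tspan31 on the other strand, had 28.0 and 69.0 FPKM in LdBC, 90.2 and 89.3 in basal and 175 in luminal cells. Its log2 difference was -1.01 ± 0.51 SE (adjusted p = 0.385 from limma with Benjamini-Hochberg adjustment), and it was -0.37 without LdBC-1 and -1.64 without LdBC-2. Of the summed Cdk4 and Cdk6 FPKM, Cdk6 made up 35.3% and 15.1% in LdBC and 5.92% and 7.12% in basal cells. Cdk2, the partner of cyclins E and A, whose exons overlap Pmel on the other strand, was highest in the luminal library, with 74.0 FPKM in luminal cells, 40.4 and 17.1 in LdBC and 6.62 and 13.9 in basal cells.

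**Figure D3:**
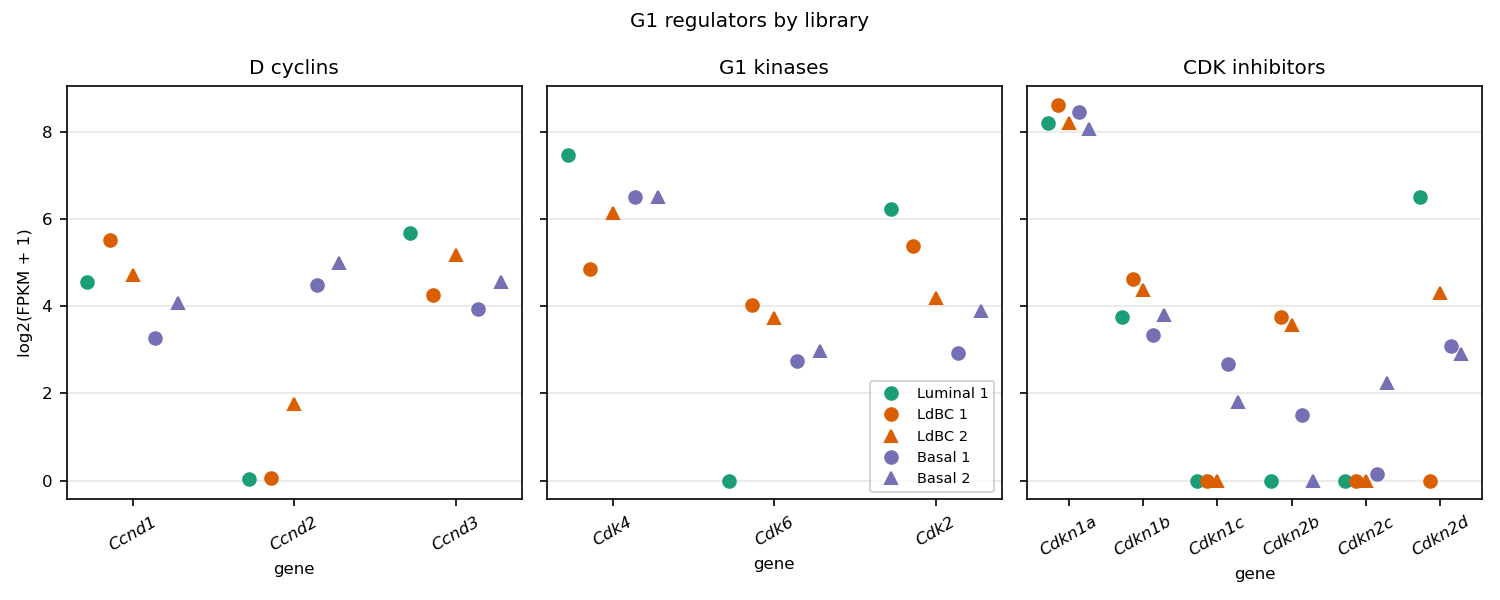
Level of the D cyclins, the G1 kinases and the CDK inhibitors, as log2(FPKM + 1) on the y axis, with 1 point per library. Ccnd2 is high in both basal libraries alone, Cdkn2b and Cdk6 are highest in both LdBC libraries, and Cdkn1a lies between 267 and 392 FPKM in all 5 libraries.

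The inhibitors were led by Cdkn1a (chr17:29090976-29100727, plus strand), the p53 target p21, whose exons overlap AC167363.2 on the other strand. It had 293 FPKM in luminal cells, 392 and 293 in LdBC and 348 and 267 in basal cells. It made up between 74.2% and 93.6% of the summed inhibitor FPKM in each library, and LdBC and basal libraries overlapped (log2 difference 0.15 ± 0.25 SE, adjusted p = 0.782 from limma with Benjamini-Hochberg adjustment). The direction flipped with scaling and with the library left out: it was lower in LdBC with median-of-ratios scaling (-0.24). Cdkn2b (chr4:89306299-89311039, minus strand), the inhibitor p15 that TGF-beta induces, had 12.5 and 10.9 FPKM in LdBC and 1.82 and 0 in basal cells, and was listed at 0 in luminal cells. Both LdBC libraries stood above the other 3, and above basal cells by 2.92 ± 0.71 (SE, limma with Benjamini-Hochberg adjusted p = 0.161).

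Cdkn1b, for p27, was also higher in both LdBC libraries, with 23.5 and 19.7 FPKM against 9.17 and 12.8 in basal cells, beside 12.6 in luminal cells. The log2 difference from basal cells was 0.93 ± 0.36 SE (adjusted p = 0.289 from limma with Benjamini-Hochberg adjustment). Cdkn1c, for p57, had 5.37 and 2.48 FPKM in basal cells and was listed at 0 in the luminal and both LdBC libraries. Cdkn2c (p18) was above 1 FPKM in Basal-2 alone, at 3.73. Cdkn2d (p19 of the Ink4 family) had 89.3 FPKM in luminal cells, 0 and 18.9 in LdBC and 7.50 and 6.46 in basal cells, so the LdBC libraries lay on either side of the basal ones. Of the 5 inhibitors past the filter on mean FPKM, 2 were higher and 1 lower in both LdBC libraries than in both basal ones, beside 30.5% and 18.6% of all genes, so these counts do not set the inhibitors apart.

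The other CDKs, many of which act in transcription or outside the cycle, included 5 of 14 that were higher and 4 that were lower in both LdBC libraries than in both basal ones, where 30.5% and 18.6% of all genes were. The 5 with the largest differences are described here. Cdk16 (a row joined with Mir5097) had 23.5 and 17.2 FPKM in LdBC where basal cells had 6.37 and 5.85, and its relative Cdk18 had 6.15 and 3.81 against 0.946 and 1.26. Cdk19, a kinase of the Mediator complex, had 11.1 and 5.99 against 2.37 and 1.98. All 3 were higher in both LdBC libraries, with log2 differences from 1.48 to 1.57 (limma with Benjamini-Hochberg adjusted p from 0.161 to 0.239). Cdk20 was lower, with 0 and 0.445 FPKM in LdBC and 3.50 and 10.2 in basal cells, and so was Cdk17, with 2.72 and 6.08 against 8.18 and 7.59. Cdk7, which activates other CDKs and is part of the transcription factor TFIIH, overlapped between the groups at 28.8 and 39.1 against 43.5 and 36.2.

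**Figure D4:**
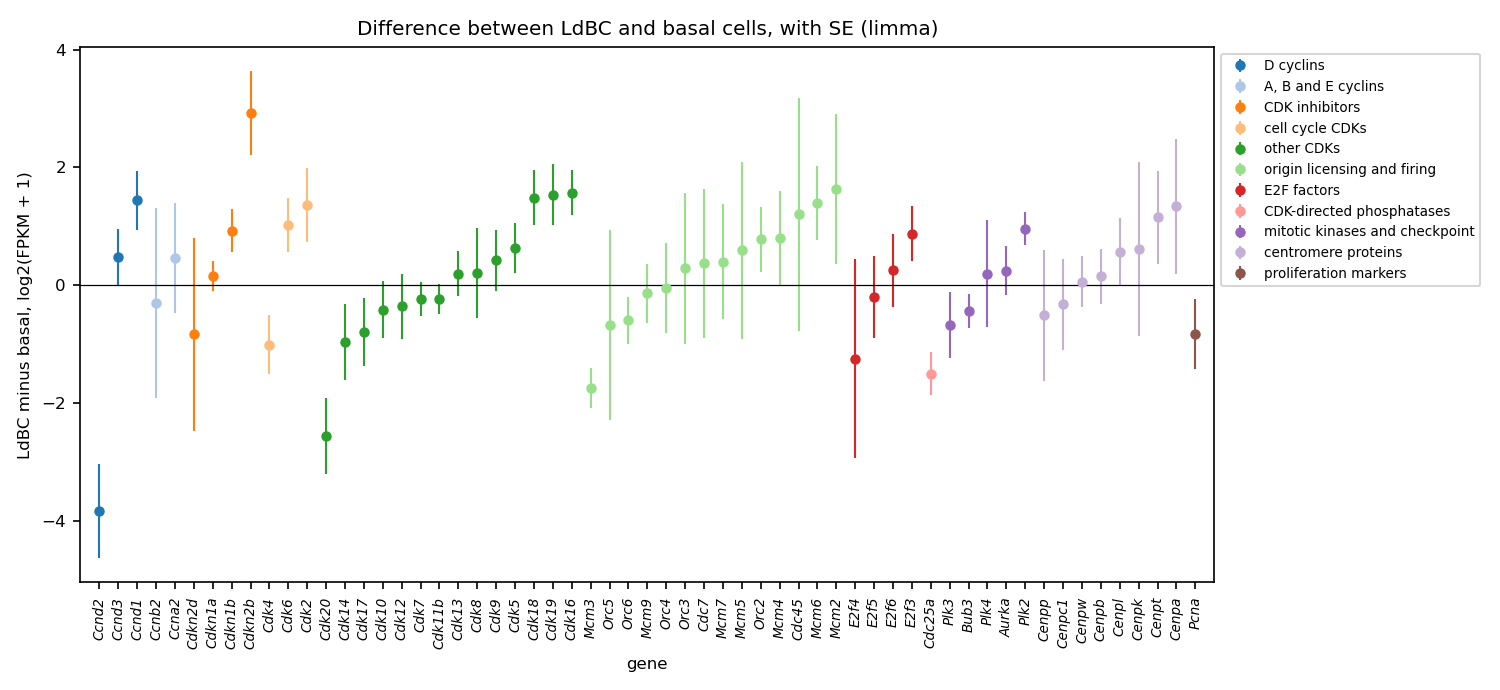
Difference between LdBC and basal cells on the log2(FPKM + 1) scale (y axis), with its standard error from limma, for 59 genes past the filter, coloured by role (x axis); genes matched by name alone and genes listed at 0 in a whole group are left out. Ccnd2 at -3.83 and Cdkn2b at 2.92 lie farthest from 0, and 26 of the 59 genes, among them Cdc45, Mcm2 and Mcm5, change direction when 1 LdBC or basal library is left out.

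Mitotic and centromere genes showed little that held in both libraries of a group. Cenpq (chr17:40923051-40935047, minus strand, overlapping Mut on the other strand), a subunit of the inner kinetochore, had 9.39 and 6.20 FPKM in basal cells and was listed at 0 in the luminal and both LdBC libraries (LdBC against basal, limma with Benjamini-Hochberg adjusted p = 0.123). Plk2, a stress-inducible polo-like kinase, had 211 and 137 FPKM in LdBC, 84.9 and 89.0 in basal cells, beside 147 in luminal cells. LdBC exceeded basal cells by 0.96 ± 0.29 (SE) on the log2 scale (limma with Benjamini-Hochberg adjusted p = 0.202). Bub3, a spindle checkpoint protein, lay between 31.4 and 60.9 FPKM in all 5 libraries. It was lower in both LdBC libraries (32.0 and 31.4) than in both basal ones (51.2 and 36.5). Cenpt was higher, with 5.90 and 21.2 FPKM against 5.53 and 3.74, and neither gene passed. Of 5 mitotic kinase and checkpoint genes tested, 1 was higher and 1 lower without overlap, and of 10 centromere genes 1 and 1. Among all genes 30.5% were higher and 18.6% lower. Bub1 was above 1 FPKM in Basal-2 alone (1.77).

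Of the 73 genes past a filter of mean FPKM 1, 0 passed an adjusted p of 0.05 (limma with Benjamini-Hochberg adjustment), where 0.00941% of all 10626 genes tested did, and 12 had an unadjusted p under 0.05 (20% of all genes). The LdBC values were both above the basal ones for 17 of the 73 (23.3%, beside 30.5% of all genes) and below for 12 (16.4%, beside 18.6%). The median difference was 0.21 on the log2 scale and that of all genes was 0.20. The set as a whole stood close to, or below, the background in this comparison. With 2 libraries a side, an exact permutation test of a single gene could not go below p = 0.333.

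The 2 LdBC libraries differed from each other in replication genes. LdBC-1 carried helicase transcripts that were at or near 0 in LdBC-2, and LdBC-2 carried the origin recognition subunits Orc3 and Orc5, which were near 0 in LdBC-1. Orc2, Orc4 and Orc6 were present in both, with 10.6, 9.32 and 7.77 FPKM in LdBC-1 and 17.1, 31.9 and 11.9 in LdBC-2. Cdc45 (chr16:18780447-18811987, minus strand, overlapping Ufd1 on the other strand), which activates the Mcm helicase, had 25.9 FPKM in LdBC-1 and 0 in LdBC-2. Mcm2 (chr6:88883474-88898780, minus strand) had 9.35 against 0.0380 and Mcm5 (chr8:75109569-75128439, plus strand) had 13.8 against 0.0374, both subunits of that helicase. In the basal libraries Cdc45 had 3.78 and 0.0576 FPKM, Mcm2 had 0 and 0.113 and Mcm5 had 1.97 and 1.28, and the luminal library had 0, 0.0464 and 22.6.

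The other Mcm subunits differed less between the LdBC libraries, and Mcm3 was near 0 in both. Mcm4 had 33.9 FPKM in LdBC-1 and 8.24 in LdBC-2, Mcm6 had 36.5 and 21.8, Mcm7 had 16.9 and 3.02, and Mcm3 had 0.0905 and 0. The summed FPKM of Mcm2 to Mcm7 was 72.9 in luminal cells, 111 and 33.2 in LdBC and 29.5 and 32.3 in basal cells. LdBC-1 held the highest sum, and LdBC-2 lay beside the basal libraries. Mcm3 was the one subunit lower in both LdBC libraries than in both basal ones, which had 2.19 and 2.86 FPKM. Its log2 difference was -1.75 ± 0.34 SE (adjusted p = 0.130 from limma with Benjamini-Hochberg adjustment). Mcm6 was higher in both LdBC libraries than in both basal ones, which had 6.02 and 16.7 FPKM. Its log2 difference was 1.39 ± 0.63 SE (adjusted p = 0.340 from limma with Benjamini-Hochberg adjustment).

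Past 4-fold on the FPKM + 1 scale, 10 of 73 genes were higher in LdBC-1 (13.7%, beside 7.19% of all genes) and 8 in LdBC-2 (11.0%, beside 14.4%). This is a count from 1 library a side, with no test. Beside Cdc45, Mcm2, Mcm5 and Mcm7, the genes higher in LdBC-1 were Ccnb2, the mitotic cyclin B2 (18.5 against 0.0901 FPKM), the centromere genes Cenpk (10.7 against 0), Cenpp (10.3 against 0.710) and Cenpa (14.8 against 2.23), and the name matches Cdkn2aipnl and Cdc73. Cenpa encodes the histone variant that marks centromeres. Those higher in LdBC-2 were Cdkn2d (18.9 against 0 FPKM), the repressive factor E2f4 (18.5 against 0), the origin recognition subunits Orc5 (15.1 against 0.0654) and Orc3 (9.10 against 0.0224), the origin-firing kinase Cdc7 (5.02 against 0), the centriole kinase Plk4 (4.00 against 0.0372), Cenpv (3.10 against 0) and the name match Cdk2ap2. Of the 14 tested genes for origin licensing and firing, 4 were thus higher in LdBC-1 and 3 in LdBC-2, where 7.19% and 14.4% of all genes were. Pcna, the sliding clamp of DNA polymerases, had 108 and 37.8 FPKM.

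The basal libraries had fewer such genes among those past the filter. Past 4-fold, 1 of 73 genes was higher in Basal-1 (1.37%, beside 3.11% of all genes), which was Cdc45, and 1 in Basal-2 (1.37%, beside 1.92%), which was the name match Cdk5rap1 with 0 FPKM in Basal-1 and 4.84 in Basal-2. The filter left out genes present in Basal-1 alone, and without it 6 of 91 were higher in Basal-1 (6.59%, beside 3.19% of all genes) and 3 in Basal-2 (3.30%, beside 2.12%).

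**Figure D5:**
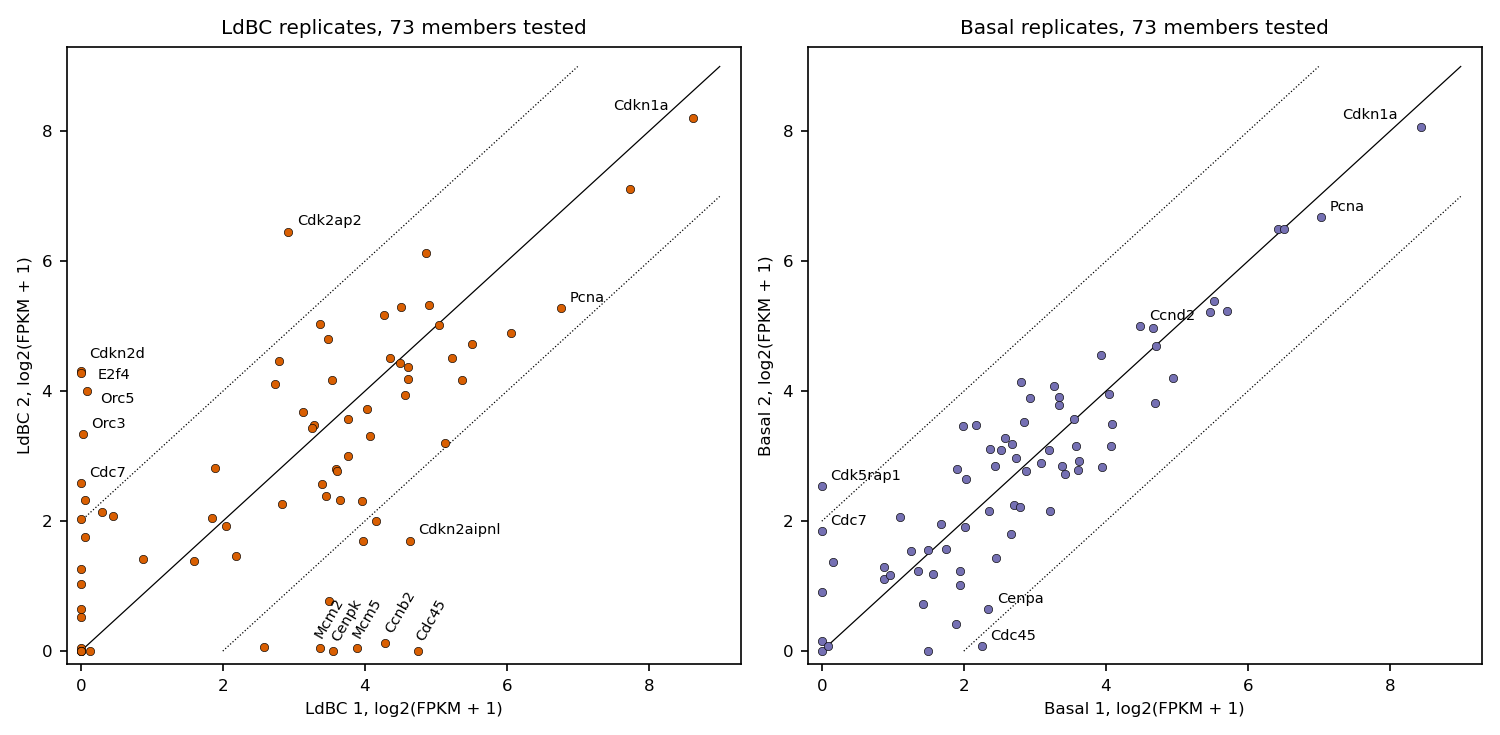
Genes past the filter plotted as log2(FPKM + 1) in one library of a group against the other, for the LdBC pair and the basal pair, with dotted lines at 4-fold. In the LdBC pair 10 genes lie past 4-fold toward LdBC-1 and 8 toward LdBC-2, and in the basal pair 1 lies past it on each side.

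The promoters of Cdc45, Mcm2 and Mcm5 are shown because these helicase genes separated the LdBC libraries, and those of Aurka and Ccnb2 because these mitotic genes had their highest level in the luminal library. Each runs from 250 bases before to 50 bases after the transcription start in RefSeq (GRCm38.p6). They lie at chr16:18811923-18812222, chr6:88898731-88899030 and chr8:75109259-75109558 for the first 3 and at chr2:172370521-172370820 and chr9:70421505-70421804 for Aurka and Ccnb2, on the minus strand except Mcm5, which is on the plus strand. Capitals mark matches on either strand, which in Mcm5 are to E2F letters and in the others to the cell cycle homology region, CHR. The E2F search took GCGGGAA as well as GCGCGAA and also GCGCCAA, and the CHR search took TTTGAA as well as TTCGAA. E2F sites are known from genes of S phase and CHR sites from genes of mitosis.
Cdc45: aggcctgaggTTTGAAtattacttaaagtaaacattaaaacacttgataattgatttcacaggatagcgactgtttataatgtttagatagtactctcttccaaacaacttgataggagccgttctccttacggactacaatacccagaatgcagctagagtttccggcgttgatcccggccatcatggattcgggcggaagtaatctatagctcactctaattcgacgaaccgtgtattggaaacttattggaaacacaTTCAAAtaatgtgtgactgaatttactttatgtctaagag
Mcm2: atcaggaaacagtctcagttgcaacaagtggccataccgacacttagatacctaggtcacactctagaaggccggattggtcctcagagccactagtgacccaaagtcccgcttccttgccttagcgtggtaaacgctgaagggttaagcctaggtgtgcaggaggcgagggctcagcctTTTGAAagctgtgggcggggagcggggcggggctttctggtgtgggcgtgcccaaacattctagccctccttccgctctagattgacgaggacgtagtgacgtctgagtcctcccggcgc
Mcm5: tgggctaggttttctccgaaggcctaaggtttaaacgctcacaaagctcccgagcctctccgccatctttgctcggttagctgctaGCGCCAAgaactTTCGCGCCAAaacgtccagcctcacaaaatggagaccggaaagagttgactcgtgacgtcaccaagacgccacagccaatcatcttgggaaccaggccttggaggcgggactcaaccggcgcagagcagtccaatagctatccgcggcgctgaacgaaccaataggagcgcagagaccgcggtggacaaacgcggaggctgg
Aurka: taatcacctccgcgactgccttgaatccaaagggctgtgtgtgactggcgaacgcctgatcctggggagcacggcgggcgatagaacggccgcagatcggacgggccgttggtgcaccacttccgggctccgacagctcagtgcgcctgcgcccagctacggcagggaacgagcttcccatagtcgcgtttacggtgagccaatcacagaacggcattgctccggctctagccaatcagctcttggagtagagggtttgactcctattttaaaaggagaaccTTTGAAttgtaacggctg
Ccnb2: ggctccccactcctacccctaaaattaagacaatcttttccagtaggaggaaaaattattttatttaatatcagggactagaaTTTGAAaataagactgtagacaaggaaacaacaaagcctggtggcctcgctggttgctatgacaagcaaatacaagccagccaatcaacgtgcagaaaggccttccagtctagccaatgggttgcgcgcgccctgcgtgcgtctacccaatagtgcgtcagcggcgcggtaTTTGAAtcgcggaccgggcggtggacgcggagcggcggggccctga

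Mcm5 held 3 E2F matches, of which 2 overlap, and the other 4 promoters held none. Counted from the start, with minus for bases before it, CHR letters stood at 32 in Aurka, at -167 and 4 in Ccnb2, at -240 and 10 in Cdc45 and at -70 in Mcm2. RefSeq promoters matched 77 of the 91 genes. Leaving out name matches, 31.7% of 82 promoters of 69 genes held E2F letters, 26.8% held CHR letters and 59.8% held CCAAT. Of 9762 promoters of all genes tested, the shares were 14.5%, 13.0% and 37.4%. In the 19 promoters of origin licensing and firing genes the shares were 47.4% for E2F and 26.3% for CHR letters, and in the 29 promoters of mitotic, centromere and A, B and E cyclin genes they were 34.5% and 37.9%. The median GC content was 61.3% for the cell cycle promoters and 61% for those of all genes tested. A match of letters is a description and not a site.

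The luminal library was the one with a clear level of Aurka (chr2:172356190-172370535, minus strand), the mitotic kinase Aurora A that served as the marker of proliferation. Aurka had 13.6 FPKM in luminal cells, 0 and 0.566 in LdBC and 0.0577 and 0.0528 in basal cells. It fell by 3.79 ± 0.52 (SE) on the log2 scale from luminal to basal cells (limma with Benjamini-Hochberg adjusted p = 0.0446), and the difference of LdBC from luminal cells was -3.55 ± 0.52 (adjusted p = 0.0562, limma with Benjamini-Hochberg adjustment). The luminal group is 1 library, assumed to vary like the others, and the call was lost with a pseudocount of 0.1, without the filter, with median-of-ratios scaling and without any 1 LdBC or basal library (adjusted p from 0.0349 to 0.194 over all alternatives, limma with Benjamini-Hochberg adjustment). Cyclin A2, from Ccna2 (chr3:36564865-36572150, minus strand, overlapping Exosc9 on the other strand), had 29.3 FPKM in luminal cells, 0.233 and 3.41 in LdBC and 0.113 and 1.58 in basal cells. Ccnb2 (chr9:70407692-70421547, minus strand) had 30.9, then 18.5 and 0.0901, then 5.93 and 3.65. Both cyclins were highest in the luminal library, and Ccnb2 in LdBC-1 came nearest to it. Neither passed in basal against luminal cells (limma with Benjamini-Hochberg adjusted p = 0.0930 for Ccna2 and 0.405 for Ccnb2).

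Mitotic genes were mixed in the luminal library. Of 37 other G2 and mitotic genes in the table, 5 were highest there (13.5%, beside 34.0% of all genes). LdBC-1 had 10 (27.0%, beside 19.3%) and LdBC-2 had 4 (10.8%, beside 19.4%). Basal-1 had 15 (40.5%, beside 15.1%) and Basal-2 had 3 (8.11%, beside 12.2%). Of the 37, 11 reached 1 FPKM in Basal-1 alone and are in the table through it, which adds to the Basal-1 count. Ccnb1, Cdk1, Plk1 and Bub1 were under 0.5 FPKM in the luminal library (0.418, 0.0554, 0.0735 and 0.0712). Cdc25c, Cenpe and Cenph were listed at 0 there, and so was Ccne1, the cyclin of S phase entry. All of the genes named here from Ccnb1 to Ccne1 reached 1 FPKM in 1 library alone, Basal-2 for Bub1 and Basal-1 for the others. They are in the table through that library, so a value under 1 in the luminal library was fixed by the selection. The replication kinase Cdc7 had 68.5 FPKM in luminal cells, 0 and 5.02 in LdBC and 0 and 2.58 in basal cells, and did not pass (LdBC against luminal -4.82 ± 1.55 SE, limma with Benjamini-Hochberg adjusted p = 0.142). Orc2 was listed at 0 in luminal cells and had 10.6 and 17.1 FPKM in LdBC and 9.76 and 5.65 in basal cells. The erythroid transcripts of the luminal library stand beside these values, and their part in the result was not tested.

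Between LdBC and luminal cells 0 of 73 genes passed (of all genes 4.01% did, 2.06% higher and 1.95% lower) and 26 had an unadjusted p under 0.05 (31.2% of all genes), in limma with Benjamini-Hochberg adjustment. Both LdBC libraries lay above the luminal one for 29 genes (39.7%, beside 35% of all genes) and below it for 25 (34.2%, beside 41.7%). Between basal and luminal cells 4 of 73 passed, 5.48% beside 8.31% of all genes, and 24 had an unadjusted p under 0.05 (38.1% of all genes). Of the 4, 1 was higher (3.23% of all genes were) and 3 were lower in basal cells (5.08% of all genes). These were Aurka, Cdk5rap3 (113 FPKM in luminal, 10.7 and 10.9 in basal cells) and the pseudogene Cdk3-ps (21.1 against 0 and 0.886), all lower, and Cdk10, listed at 0 in luminal cells with 16.1 and 10.3 FPKM in basal cells. Their limma Benjamini-Hochberg adjusted p-values lay between 0.0446 and 0.0496, and 2 of the 4 match by name alone. Basal libraries lay above the luminal one for 32 genes (43.8%, beside 39.8%) and below it for 34 (46.6%, beside 48.5%). The median difference from luminal cells was 0.21 for LdBC (all genes 0.01) and 0.01 for basal cells (all genes -0.13). The 2 comparisons share the luminal library, and without any 1 LdBC or basal library 0 of the 73 passed in either.

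Some transcripts of S phase entry and mitosis were at a low level in Basal-1 alone. A gene enters the deposited table through a value above 1 in at least 1 library, so those counted here were also selected by their Basal-1 value. An FPKM of 1 or more was reached in Basal-1 alone by 10 of the 91 genes, 11.0% beside 4.27% of all genes. They were Cdk1 (4.27 FPKM), the kinase of mitotic entry, Ccnb1 (3.99), its partner cyclin B1, Ccne1 (4.03), the kinesin-like centromere protein gene Cenpe (3.33), the phosphatase genes Cdkn3 (3.04) and Cdc25c (2.49), Plk1 (2.21), Cenph (2.20), E2f7 (1.72) and E2f1 (1.26). In Basal-2 these 10 had 0 to 0.358 FPKM. All are low, and all 10 are among the 18 genes that did not pass the filter on mean FPKM. The other libraries had 1 to 3 genes of this kind.

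The list of other G2 and mitotic genes was selected in the same way, with 37 of 55 in the table, and its counts are a description. Of the 37, 33 reached 1 FPKM in Basal-1, against 12 in luminal cells, 17 and 14 in LdBC-1 and LdBC-2 and 16 in Basal-2. Of these, 11 of 37 (29.7%) reached it in Basal-1 alone and are in the table through that library, and 0 to 2 did so in each of the others. At 2 FPKM, a level added after the data were seen, 25 of 37 reached it in Basal-1 and 11 to 17 elsewhere. The endothelial markers Cldn5 (110 FPKM), Emcn (18.3) and Pecam1 (11.3) and the myeloid marker Lyz2 (13.1) were high in Basal-1 and 0 in Basal-2, and their part in the result was not tested.

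The other genes of the pathway gave few calls. For S phase 42 of 47 listed genes were in the table and 37 were tested, for G2 and mitosis 37 of 55 and 25, and for checkpoints and cell cycle exit 32 of 35 and 28. Between LdBC and basal cells 0 of the 90 tested passed limma with Benjamini-Hochberg adjustment and 15 had an unadjusted p under 0.05, 16.7% beside 20% of all genes. The largest differences without overlap were in Tipin, a replication fork protein (4.21 and 0.240 FPKM in LdBC against 23.0 and 35.2 in basal cells), the p53 target Phlda3 (4.22 and 23.1 against 136 and 97.7), the chromatin remodeller Hells (8.23 and 4.27 against 0 and 0.190) and the primase subunit Prim1 (19.1 and 6.89 against 2.67 and 0.0679). Without overlap, the S phase list had 10 genes higher (27%) and 5 lower (13.5%), both below the shares of all genes (30.5% and 18.6%), while its median of 0.53 was above the 0.20 of all genes.

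Against luminal cells, 1 of 90 was called in LdBC (1.11%, beside 4.01% of all genes) and 3 in basal cells (3.33%, beside 8.31%), all lower than in the luminal library. All 4 calls were lost without any 1 LdBC or basal library and with median-of-ratios scaling. Ccng2, a cyclin raised in growth-arrested cells, had 20.1 FPKM in luminal cells and was listed at 0 in both LdBC libraries (limma with Benjamini-Hochberg adjusted p = 0.0499). From luminal to basal cells, 3 genes fell. Cks2, a CDK-binding protein, had 129 FPKM in the luminal library, then 68.6 and 72.2 in LdBC, then 27.9 and 28.4 in basal cells. Fzr1, an activator of the anaphase-promoting complex in G1, had 43.0, then 6.12 and 4.59, then 2.67 and 2.93, and the stress gene Gadd45a had 87.9, then 81.4 and 76.4, then 20.1 and 20.8. Basal cells were lower than luminal cells by log2 differences of -2.16, -3.53 and -2.05 for Cks2, Fzr1 and Gadd45a (limma with Benjamini-Hochberg adjusted p = 0.0391, 0.0485 and 0.0427). In Gadd45a the LdBC libraries stood with the luminal library, in Fzr1 with the basal ones and in Cks2 between them.

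The LdBC libraries also differed from each other in the S phase list. Past 4-fold, 13 of 37 genes were higher in LdBC-1 (35.1%, beside 7.19% of all genes) and 4 in LdBC-2 (10.8%, beside 14.4%), with a median difference of 1.25 where all genes had -0.10. Examples chosen after their values were seen are the polymerase subunit Pole (9.83 against 0.0520 FPKM), the cohesion factor Dscc1 (11.9 against 0.109) and the uracil glycosylase Ung (15.2 against 0). For G2 and mitosis 5 of 25 were higher in LdBC-1 (20%) and 2 in LdBC-2 (8%), and for checkpoints and exit 2 of 28 were higher in each (7.14%). In the basal pair 3 of 37 S phase genes were higher in Basal-1 (8.11%, beside 3.11% of all genes) and 1 in Basal-2. The S phase and the G2 and mitotic shares in LdBC-1 were both above that of all genes, and the lists were not tested against each other.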

How the data were processed

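RNA from about 50 sorted cells per library was amplified by a modified Smart-seq2 protocol, per the labels' protocols. Per the submitters' processing notes, the tools were TopHat2 2.0.4 and, at version 2.0.2, Cufflinks and Cuffdiff, with build mm10; no annotation is named in the sources used here. The authors deposited log2(FPKM + 1) values per gene and library, which were turned back into FPKM. The table has 12311 rows, of which 18 with names turned into dates were left out.

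Differences were tested with limma 3.58.1 (R 4.3.3) with an intensity trend on log2(FPKM + 1), with a pseudocount of 1, over 10626 genes (mean FPKM of 1 or more). The 5 libraries shared 1 fit with group means, and p-values were Benjamini-Hochberg adjusted over all genes tested; calls have an adjusted p under 0.05. There were 2 residual degrees of freedom, to which the prior added 1.65. Log2 differences on this scale understate changes of low genes and are left out where a whole group is listed at 0. Pairs of libraries were compared by a 4-fold difference without a test. Depth is unknown, so no counting interval is given. Of the 91 genes, 34 have exons overlapping a gene on the opposite strand, and the overlap is named above for some of them only.

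Named genes are a fixed set of known regulators, genes called, and the largest differences per comparison without overlap or the highest levels per role; others, such as Cdk18, were named after their values were seen. The members and the lists were chosen with earlier results of these data known. The method was tested on simulated data. Positions are from GENCODE (GRCm38).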

Additional observations from a re-analysis of the deposited data

How the results depend on the processing

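Counts under the alternatives below are of the set alone. The share of all genes under the same setting is not given, so the counts cannot be read against it. The correlation of same-numbered deviations was 0.0115 across genes, from 2 pairs, which cannot show whether the replicate numbers pair the libraries. With a replicate block 0 of the genes were called between LdBC and basal cells, 17 and 12 lay apart and the median stayed at 0.21. Between LdBC and basal cells the called count stayed at 0 under each alternative. The count of genes apart was 20 lower without the filter, 6 lower with a filter at a mean FPKM of 5, and 11 higher and 20 lower with median-of-ratios scaling; leaving out a library, which makes separation easier, gave 23 to 37 higher (23 without Basal-1, 26 without Basal-2, 31 without LdBC-1, 37 without LdBC-2) and 17 to 25 lower. The median became -0.048 without the filter, 0.41 at a mean of 5, -0.082 with median-of-ratios scaling, 0.019 with quantile scaling and -0.016 to 0.24 without a library.

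Between LdBC and luminal cells the calls were 4 with a pseudocount of 0.1, 2 with 5, 2 at a mean of 5, 3 without trend and 0 without any LdBC or basal library; 17 genes were higher at a mean of 5, and 29 to 39 higher and 25 to 32 lower without a library. The median was 0.094 without the filter, 0.00013 at a mean of 5, 0.61 and 0.062 with the other scalings and 0 to 0.21 without a library. Between basal and luminal cells there were 10 calls with a pseudocount of 0.1, 0 without the filter, 0 with median-of-ratios scaling, 2 without trend and 0 without a library; 15 genes were higher at a mean of 5, 22 lower with median-of-ratios scaling, and 32 to 36 higher and 34 to 37 lower without a library. The median was 0.70 without the filter, -0.71 at a mean of 5, 0.54 and 0.15 with the other scalings and -0.13 to 0.01 without a library.

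In the LdBC pair, higher in LdBC-1 were 2 genes with a pseudocount of 5, 5 at a mean of 5 and 17 past 2-fold, and higher in LdBC-2 were 15 with a pseudocount of 0.1, 3 with 5, 5 with quantile scaling and 18 past 2-fold. In the basal pair, higher in Basal-1 were 4 with a pseudocount of 0.1, 0 with 5, 6 without the filter, 0 with quantile scaling and 7 past 2-fold, and higher in Basal-2 were 4, 0, 3, 3 and 6, with 0 at a mean of 5 and 2 with median-of-ratios scaling. Cdkn1a turned lower in LdBC with median-of-ratios (-0.24) and quantile scaling (-0.23), without LdBC-1 (-0.055) and without Basal-2 (-0.036), in a range of -0.055 to 0.36 over the libraries left out. Without LdBC-1, Cdkn2d turned higher (1.32, range -2.99 to 1.32) and Mcm4 lower (-0.16, range -0.16 to 1.75). Of the 59 genes plotted with an error, 26 changed direction between LdBC and basal cells when 1 library was left out (14 without LdBC-1, 10 without LdBC-2, 7 without each basal library), 7 with median-of-ratios and 6 with quantile scaling. Cdk4 went from -1.01 to -0.37 without LdBC-1. On the log2 scale the median-of-ratios size factors were 0.59 (luminal), 0.14 (LdBC-1), 0.22 (LdBC-2), -0.18 (Basal-1) and -0.24 (Basal-2), so this scaling lowers LdBC levels against basal ones. The cause was not tested. With 2 libraries a group, the depth of a library unknown and the luminal group 1 library, a gene missing the threshold is not shown to be equal.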
